A study of Rattus norvegicus with 24 samples.

Results

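Genes of the complement system were followed in rat brain 3 months after traumatic brain injury (TBI). With earlier results of these data known, 9 genes were asked for by gene name: C1qa, C1qb, C1qc, C1s, C2, C3, Cfb, Serping1 and C3ar1. Of these, 8 were found among 26641 named loci, each at 1 locus, and no locus carried the name Cfb. The libraries came from adult male Sprague-Dawley rats. In the 6 TBI rats a lateral fluid-percussion injury was delivered through an opening in the skull over the left parietal lobe, and the 6 sham-operated rats had the anesthesia and surgery without the impact. Polyadenylated RNA of each rat was sequenced from cortex beside the lesion (perilesional) and thalamus of the injured side (ipsilateral), 1 library per rat and region and 24 libraries in all. The TBI rats were picked for sequencing for signs of chronic inflammation around the lesion on magnetic resonance imaging, so they are not a random sample of injured rats, and this bears on every comparison of inflammatory genes.

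Complement is a cascade of plasma and tissue proteins that tags cells and debris for uptake and calls in immune cells. In the classical pathway C1q, built from the chains A, B and C, binds a target and activates the proteases C1r and C1s, which cleave C4 and C2. The convertases so formed, and the alternative-pathway convertase that contains factor B (Cfb), cleave C3. In the brain C1q is made mainly by microglia and is known for tagging synapses, whereas C1-inhibitor, the product of Serping1, blocks C1r and C1s. The receptor encoded by C3ar1 binds the C3 fragment C3a.

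Values are normalized counts, that is, deposited fragment counts scaled by the authors with 1 size factor per library. Depth ran from 30568927 to 54608922 fragments per library, and the members had between 75 (C3ar1) and 10321 (C3) fragments in single libraries. In sham rats all 6 thalamic identity genes were called higher in the thalamus and all 6 cortical ones higher in the cortex. Rat 45 stood apart among the TBI rats in its summed level of 6 choroid plexus markers. In the cortex this sum was 31489 normalized counts, against at most 1021 in the other TBI cortex libraries. In the thalamus it was 254830, against at most 1750. Among the sham libraries the same sum reached 23131 in the cortex (rat 26) and 106100 in the thalamus (rat 50). Sham rat 34 was at 10978 in the cortex and 67080 in the thalamus. Differences were tested on log2(normalized count + 1), which understates the change of low genes, and a gene was called where the Benjamini-Hochberg adjusted p of limma over all loci tested was under 0.05. The tissue was bulk, so a change in the number of cells of a type and a change in RNA per cell cannot be told apart.

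The RefSeq table of promoter windows (GRCr8) held 4 of the 9 genes, C1qa, C1qb, C3 and C3ar1. These genes rose in both regions, and the 250 bases before the start site of the first 3 are shown, with matches to the motifs searched in capitals. The C3ar1 window reaches past the start site that the RefSeq gene table gives, so part of it is not upstream sequence by that table, and it is not shown. All 3 lie on the minus strand and are written 5′ to 3′ in the direction of transcription.
C1qa, GRCr8 chr5:154419934-154420183: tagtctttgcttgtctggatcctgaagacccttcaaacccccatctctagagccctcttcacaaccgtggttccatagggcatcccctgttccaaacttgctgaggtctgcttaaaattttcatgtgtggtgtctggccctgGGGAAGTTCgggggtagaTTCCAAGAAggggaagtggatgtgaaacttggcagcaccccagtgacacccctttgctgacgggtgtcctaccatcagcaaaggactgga
C1qb, GRCr8 chr5:154407828-154408077: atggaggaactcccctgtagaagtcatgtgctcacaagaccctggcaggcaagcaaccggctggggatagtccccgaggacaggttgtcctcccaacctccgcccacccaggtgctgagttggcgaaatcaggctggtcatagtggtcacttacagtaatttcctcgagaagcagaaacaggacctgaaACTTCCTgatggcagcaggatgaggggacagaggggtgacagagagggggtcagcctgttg
C3, GRCr8 chr9:2201340-2201589: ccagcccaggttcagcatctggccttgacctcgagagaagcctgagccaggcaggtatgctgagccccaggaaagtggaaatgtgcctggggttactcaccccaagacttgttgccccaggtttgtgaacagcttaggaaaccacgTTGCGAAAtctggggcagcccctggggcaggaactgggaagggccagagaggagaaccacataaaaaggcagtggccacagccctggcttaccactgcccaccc

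In all, 5 motifs were searched on both strands of the 250 bases. In C1qa the capitals mark GGGAAGTTC, a match to the NF-kappaB letters GGGANNTTC that 3.364% of 33469 RefSeq promoter windows hold, and TTCCAAGAA, a match to the STAT letters TTCNNNGAA, held by 7.667%. In C1qb they mark ACTTCCT, which is the PU.1 letters AGGAAGT read on the other strand, held by 7.075%. In C3 they mark TTGCGAAA, a match to the C/EBP letters TTGCNNAA, held by 9.217%. None of the 4 windows held the interferon-stimulated element GAAANNGAA, which 8.118% of windows hold, and the C3ar1 window, only partly upstream of the listed start site, held no match to any of the 5 motifs. No motif was found in more than 1 of the 4 windows.

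All 8 genes were higher in TBI than in sham rats in both regions. In the cortex 8 of 8 were called higher, against 14.3% of all loci tested called higher and 14.9% called lower. In the thalamus again 8 of 8 were called higher, against 14.5% of all loci higher and 20.9% lower. The median log2 difference of the 8 genes was 0.87 for cortex and 1.16 for thalamus, beside -0.01 and -0.02 over all loci tested. In the cortex every TBI value lay above every sham value for all 8 genes, which held for 7.02% of all loci. In the thalamus this was so for 6 of the 8, against 7.46% of all loci, and C1qc and C3ar1 overlapped. The genes were picked with earlier results of these data known, so the counts describe them and are no independent test.

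**Figure D1:**
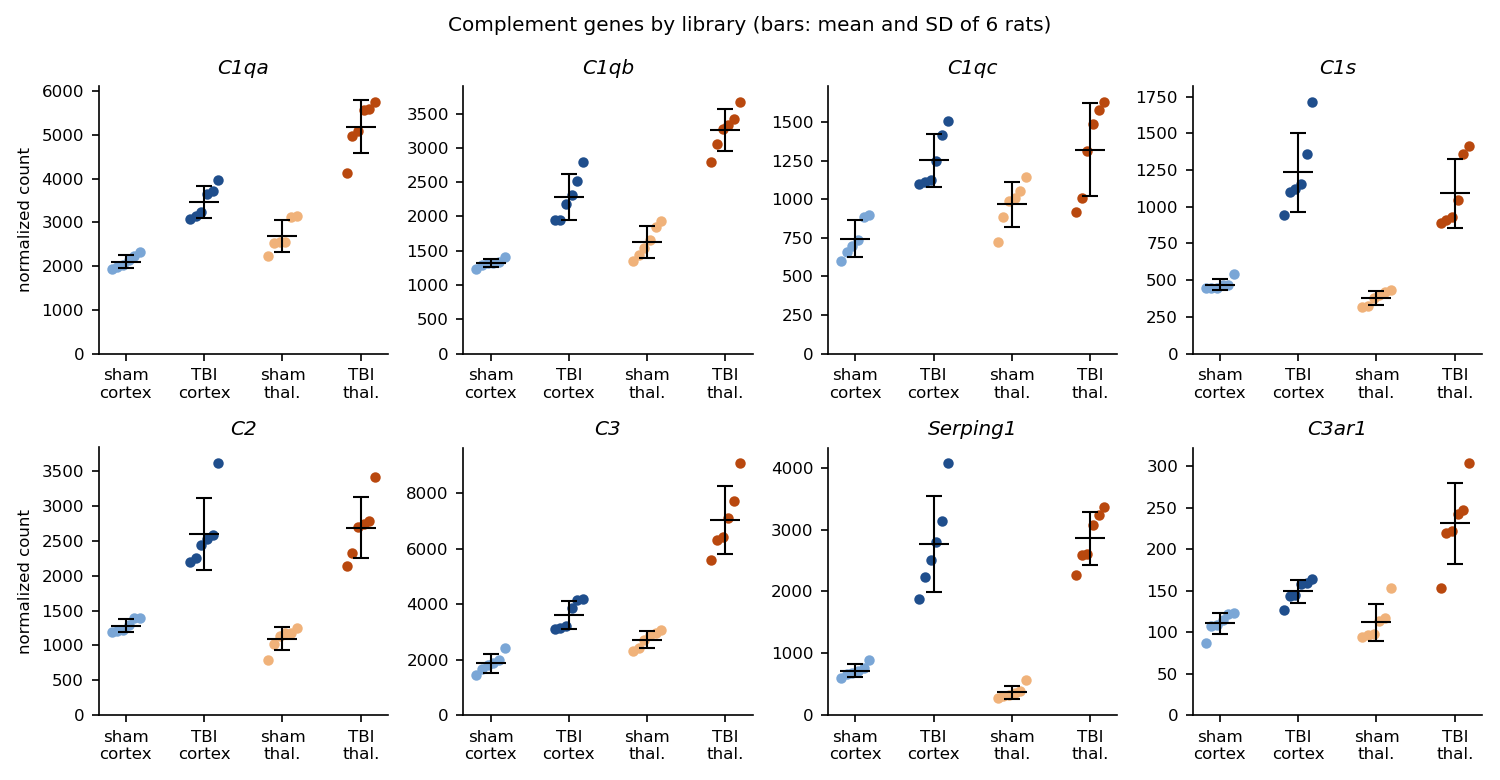
Normalized counts (linear axes from 0) of the 8 complement genes in each library, by group, with the mean and SD of 6 rats as bars. TBI libraries lie above sham libraries in both regions, except that in the thalamus C1qc (TBI rats 22 and 24) and C3ar1 (TBI rat 52) overlap.

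The recognition molecule C1q was described by its 3 chain genes, which lie side by side on chromosome 5 of the deposited annotation. C1qa (chr5:159023753-159026611) measured 1933 to 2322 normalized counts in the sham cortex (median 2078) and 3089 to 3980 in the TBI cortex (median 3446). In the thalamus it measured 2238 to 3150 in sham rats (median 2555) and 4133 to 5762 in TBI rats (median 5332). The groups did not overlap in either region. The rise was 1.65-fold in the cortex (95% CI 1.49 to 1.82, adjusted p = 9.04e-06) and 1.93-fold in the thalamus (CI 1.68 to 2.22, adjusted p = 6.04e-06).

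C1qb (chr5:159008940-159014494) followed C1qa closely. It measured 1239 to 1413 in the sham cortex (median 1318), 1950 to 2789 in the TBI cortex (median 2244), 1344 to 1932 in the sham thalamus (median 1599) and 2801 to 3674 in the TBI thalamus (median 3308). Its rise was 1.72-fold in the cortex (CI 1.53 to 1.93, adjusted p = 1.3e-05) and 2.02-fold in the thalamus (CI 1.76 to 2.30, adjusted p = 2.05e-06).

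C1qc (chr5:159017514-159022376), which lies between both, departed from them in the thalamus. In the cortex it measured 598 to 900 in sham rats (median 718) and 1101 to 1508 in TBI rats (median 1186), a rise of 1.68-fold (CI 1.43 to 1.98, adjusted p = 0.000191) with no overlap. In the thalamus the sham libraries gave 721 to 1146 (median 998) and the TBI libraries 917 to 1631 (median 1398). The TBI libraries of rats 22 (917) and 24 (1005) fell within the sham range. The thalamic rise was 1.35-fold (CI 1.08 to 1.68, adjusted p = 0.0356), and the call was lost when any 1 of 7 libraries was left out (sham rats 38, 50 and 55, TBI rats 45, 52, 56 and 63), with adjusted p between 0.0563 and 0.0793.

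Since the chains are assembled into 1 protein, their ratios were compared within libraries, a comparison chosen after the values had been seen. The ratio of C1qc to C1qa lay between 0.322 and 0.398 in the sham thalamus (median 0.356) and between 0.174 and 0.320 in the TBI thalamus (median 0.259). All 6 TBI values were below every sham value, and the lowest came from rats 24 (0.174), 22 (0.222) and 56 (0.236). In the cortex the same ratio was 0.309 to 0.413 in sham and 0.340 to 0.379 in TBI rats, and the groups overlapped fully. In the cortex of rats 24, 22 and 56 it was 0.379, 0.340 and 0.341.

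The ratio of C1qb to C1qa stayed within 0.562 and 0.701 over all 24 libraries. An exact permutation test over samples (two-sided, 924 splits) was run on the log2 ratios, for 3 ratios in the cortex, in the thalamus and for the thalamus minus cortex difference of each rat, 9 tests in all. In the thalamus C1qc relative to C1qa was lower in TBI rats by a factor of 0.699 (log2 difference -0.52 ± 0.14 SE, exact permutation p = 0.00216, the smallest these splits can give, adjusted p = 0.00974). Relative to C1qb the factor was 0.669 (-0.58 ± 0.14, exact permutation p = 0.00216, adjusted p = 0.00974). The difference between regions was -0.55 ± 0.16 for C1qc to C1qa (exact permutation p = 0.00433, adjusted p = 0.0130) and -0.55 ± 0.15 for C1qc to C1qb (exact permutation p = 0.00649, adjusted p = 0.0146). For C1qc to C1qa in the cortex the log2 difference was 0.03 ± 0.08 (exact permutation p = 0.669), and for C1qb to C1qa it was 0.06 ± 0.05 in the cortex (exact permutation p = 0.260) and 0.06 ± 0.04 in the thalamus (exact permutation p = 0.199). These tests used ratios picked for their pattern and are not independent of that choice. Whether fragments were shared out between the chain genes by the authors' assembly differently in these libraries was not tested.

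**Figure D2:**
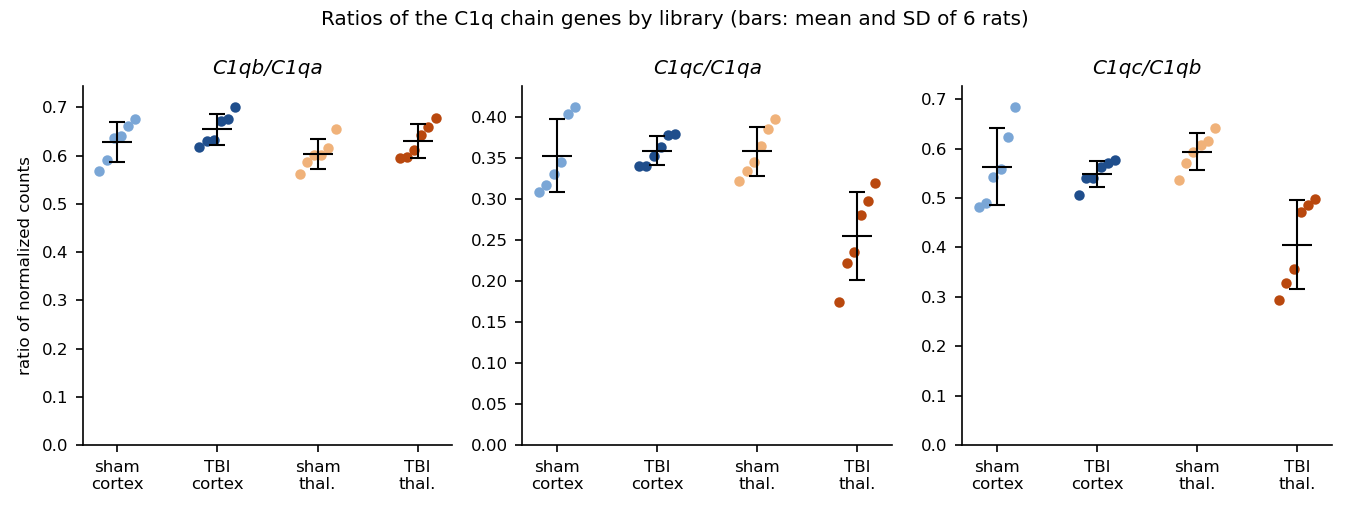
Ratios of normalized counts of C1qb to C1qa, C1qc to C1qa and C1qc to C1qb in each library (linear axes from 0), with the mean and SD of 6 rats as bars. In the TBI thalamus C1qc to C1qa (0.174 to 0.320) and C1qc to C1qb (0.293 to 0.498) lie below all sham thalamus values, while C1qb to C1qa overlaps in all groups.

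C1s, the protease that C1q sets to work on C4 and C2, is at chr4:224162095-224174139. It measured 447 to 541 normalized counts in the sham cortex (median 458) and 946 to 1715 in the TBI cortex (median 1139). In the thalamus it measured 314 to 433 in sham (median 386) and 886 to 1416 in TBI rats (median 989). No TBI value reached down to the sham range in either region. The rise was 2.58-fold in the cortex (CI 2.18 to 3.05, adjusted p = 2.84e-06) and 2.85-fold in the thalamus (CI 2.35 to 3.46, adjusted p = 1.46e-06).

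C2, whose product C1s cleaves and which is the protease part of the classical C3 convertase, measured 1195 to 1397 in the sham cortex (median 1257) and 2193 to 3617 in the TBI cortex (median 2486). In the thalamus the values were 793 to 1252 (median 1158) and 2148 to 3420 (median 2727). The rise was 2.00-fold in the cortex (CI 1.73 to 2.32, adjusted p = 1.05e-05) and 2.46-fold in the thalamus (CI 2.06 to 2.93, adjusted p = 2.7e-06). The C2 locus spans chr20:6616018-6641139 and begins 18 bases after the end of Nelfe, at the place where the RefSeq order of this region (GRCr8) is Zbtb12, C2, Cfb, Nelfe. Between the C2 locus and Zbtb12 the deposited annotation lists 2 further loci without a gene symbol, 1 of 55 bases with 0 fragments in every library and 1 of 596 bases with 0 to 20. Fragments of Cfb, if they were counted at the C2 locus, cannot be told apart from those of C2. The neighbours Nelfe and Zbtb12 had TBI over sham ratios of group means of 1.09 and 1.12 (cortex) and of 1.16 and 1.02 (thalamus).

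C3 (chr9:8728464-8754412), the protein on which all pathways converge, measured 1444 to 2400 in the sham cortex (median 1845) and 3094 to 4173 in the TBI cortex (median 3535). In the sham thalamus it measured 2305 to 3060 (median 2793) and in the TBI thalamus 5587 to 9081 (median 6758), the highest value being that of rat 63. The groups did not overlap in either region. The rise was 1.95-fold in the cortex (CI 1.65 to 2.29, adjusted p = 3.56e-05) and 2.57-fold in the thalamus (CI 2.19 to 3.01, adjusted p = 6.66e-07).

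Serping1, the inhibitor of C1r and C1s, showed the largest change of the 8 genes in both regions. It measured 593 to 893 normalized counts in the sham cortex (median 689) and 1871 to 4072 in the TBI cortex (median 2655). In the sham thalamus it measured 270 to 560 (median 342) and in the TBI thalamus 2272 to 3371 (median 2838). The groups did not overlap in either region. The rise was 3.79-fold in the cortex (CI 3.03 to 4.73, adjusted p = 2.02e-06) and 7.88-fold in the thalamus (CI 6.30 to 9.84, adjusted p = 1.74e-08), where Serping1 was number 13 of 15564 loci by log2 difference. The annotation lists Serping1 and 12 other loci at 1 position (chr3:78522440-78740155). The 7 of these with a mean of at least 10 had TBI over sham ratios of group means from 0.850 to 1.40 in the cortex and from 0.819 to 1.35 in the thalamus. For Ube2l6 (1.40 and 1.35) every TBI value lay above every sham value in both regions. For Tmx2 (0.823) and Zdhhc5 (0.819) every TBI value lay below every sham value in the thalamus.

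C3ar1 (chr4:222702204-222711651), the C3a receptor, had the lowest counts and the smallest rise in the cortex. It measured 87.1 to 122.9 in the sham cortex (median 112.0) and 126.6 to 164.0 in the TBI cortex (median 151.8), a rise of 1.35-fold (CI 1.16 to 1.58, adjusted p = 0.00619). In the thalamus it measured 94.4 to 153.7 in sham (median 105.8) and 153.1 to 303.9 in TBI rats (median 232.5), a rise of 2.04-fold (CI 1.61 to 2.59, adjusted p = 0.000216). The only overlap was between TBI rat 52 (153.1) and sham rat 26 (153.7).

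Rat 45 gave the highest TBI cortex value of 5 of the 8 genes (C1s, C2, C3, Serping1 and C3ar1) and the highest TBI thalamus value of 3 (C1s, C2 and Serping1). Without its cortex library the log2 difference in the cortex was 1.27 instead of 1.37 for C1s, 0.90 instead of 1.00 for C2 and 1.80 instead of 1.92 for Serping1, and all 8 genes were still called. Without its thalamus library it was 1.43 instead of 1.51 for C1s, 1.23 instead of 1.30 for C2 and 2.93 instead of 2.98 for Serping1, and 7 of the 8 were called, C1qc being lost. Rat 24 was among the 2 highest TBI cortex libraries for 7 of the 8 genes, and rat 63 was the lowest for 5. In the thalamus rat 22 was the lowest TBI library for 5 of the 8.

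Whether TBI acted differently in cortex and thalamus was tested by the interaction term of a fit to all 24 libraries. The term was called for 1 of the 8 genes, Serping1, against 2.72% of all loci called with a larger and 4.54% with a smaller effect in the thalamus. The Serping1 effect was larger in the thalamus by 1.06 ± 0.23 (log2, SE), or 2.08-fold (CI 1.50 to 2.89, adjusted p = 0.00586). For C3ar1 the difference was 0.60 ± 0.19 (adjusted p = 0.0585). With the rat as a block, which pairs the cortex and thalamus libraries of each rat, its adjusted p was 0.0269. The call was also made without sham rat 26 (adjusted p = 0.0352) or TBI rat 52 (adjusted p = 0.0208). C3 differed by 0.40 ± 0.17 (adjusted p = 0.144), and C1qa, C1qb, C2 and C1s by 0.23, 0.23, 0.30 and 0.14. The difference was negative for C1qc alone, at -0.32 ± 0.20 (CI -0.73 to 0.08, adjusted p = 0.352). None of these 6 was called.

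In sham rats 6 of the 8 genes were called different between the regions, a share near that of all loci. Called higher in the sham thalamus were 4 (C1qa, C1qb, C1qc and C3), against 33.5% of all loci, and called lower were 2 (C1s and Serping1), against 27.9%. C3 was 1.47-fold higher in the thalamus (CI 1.25 to 1.74, adjusted p = 0.000184) and C1qa 1.27-fold (CI 1.12 to 1.44, adjusted p = 0.00118). C1qb was 1.22-fold higher (adjusted p = 0.00649). C1qc was 1.30-fold higher (adjusted p = 0.0214), a call lost without sham rat 26, 34 or 50. Serping1 stood at 0.506 of its cortical level (CI 0.402 to 0.638, adjusted p = 9.51e-06) and C1s at 0.800 (CI 0.666 to 0.962, adjusted p = 0.0334). The C1s call was lost without sham rat 38, 50 or 55. C2 stood at 0.844 (CI 0.715 to 0.997, adjusted p = 0.0730), and at an adjusted p of 0.0104 with the rat as a block. C3ar1 was at 1.01 (CI 0.828 to 1.22).

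In TBI rats 4 genes were called higher in the thalamus (C1qa, C1qb, C3 and C3ar1), against 32.7% of all loci, and none was called lower, against 27.9%. The largest of these differences was that of C3, 1.95-fold (CI 1.65 to 2.30, adjusted p = 9.57e-08). Serping1, which was lower in the sham thalamus, was at 1.05 (CI 0.835 to 1.33, adjusted p = 0.716) of its cortical level in TBI rats. C1qc was at 1.04 (CI 0.852 to 1.27, adjusted p = 0.754), C2 at 1.04 (CI 0.877 to 1.22) and C1s at 0.884 (CI 0.736 to 1.06). Over the 4 groups C1qa, C1qb and C3 therefore ran from the sham cortex over the sham thalamus and the TBI cortex to the TBI thalamus, whereas for C1s, C2 and Serping1 the sham thalamus was lowest and the TBI groups of both regions overlapped. Between the middle groups of that order, which were not tested against each other, C1qa overlapped (sham thalamus up to 3150, TBI cortex from 3089), and C1qb and C3 did not. For C1qc the order of the medians was the same, with overlapping TBI groups, and for C3ar1 the sham groups of both regions overlapped at the low end. For C2 the sham groups also overlapped (thalamus up to 1252, cortex from 1195), and their difference was not called in the main fit.

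**Figure D3:**
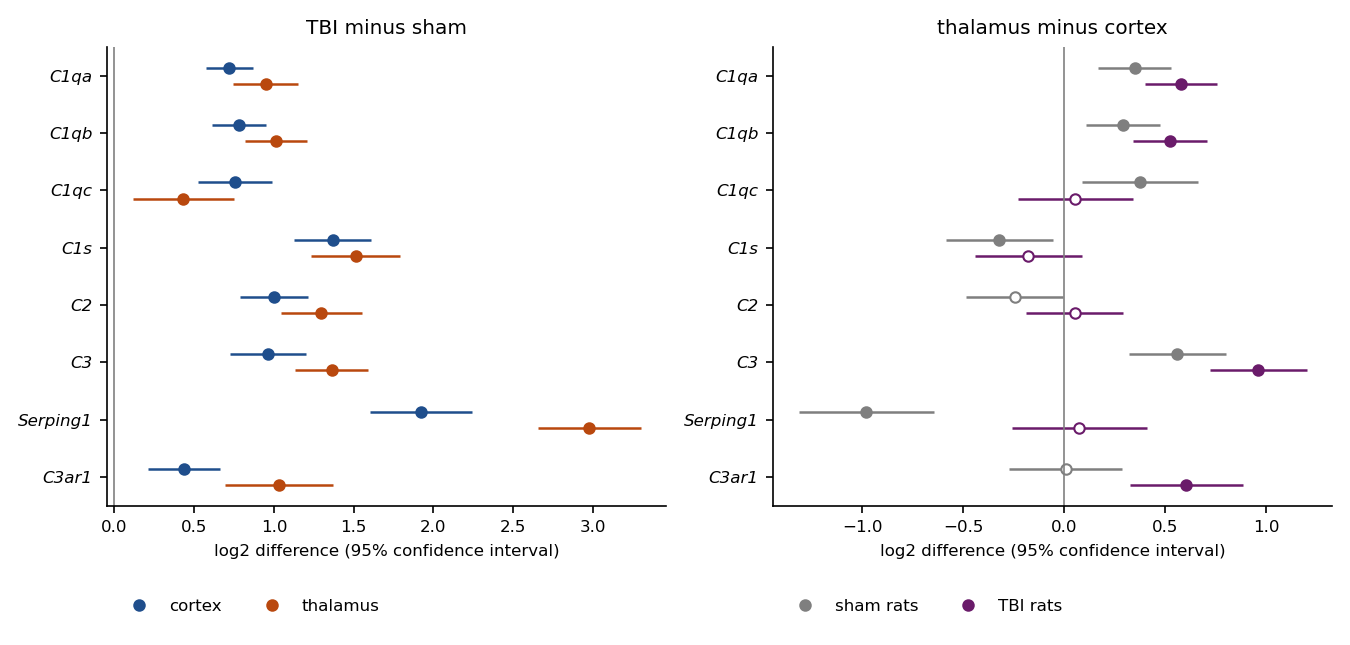
Log2 differences with 95% confidence intervals for TBI minus sham in each region (left) and thalamus minus cortex in sham and in TBI rats (right), filled where the adjusted p was under 0.05. Serping1 has the largest differences between TBI and sham (1.92 and 2.98) and is lower in the thalamus than in the cortex of sham rats (-0.98).

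Markers of cell types moved with these genes. Of 15 microglial markers 14 were found and 13 tested, and 12 were called higher in the TBI cortex and 13 in the TBI thalamus, with median log2 differences of 0.56 and 1.02. Their summed level ran from 15721 to 16956 normalized counts in the sham cortex, from 21760 to 23856 in the TBI cortex, from 17071 to 21464 in the sham thalamus and from 34592 to 43661 in the TBI thalamus. Siglech, the marker not tested, reached at most 2 fragments in a library. All 6 markers of fibroblasts and meninges were called higher in the cortex and none of 6 in the thalamus. The perivascular macrophage markers gave 3 of 5 higher calls in the cortex and 0 of 5 in the thalamus. Of 9 astrocyte markers 5 were called higher and 1 lower in the cortex, and 5 higher in the thalamus. Of 13 neuronal markers 10 were called lower in the cortex and 11 in the thalamus. The oligodendrocyte markers gave 3 of 6 higher calls in the cortex and 0 of 6 in the thalamus, and the endothelial markers 1 of 7 and 3 of 7. The endothelial share in the cortex was near that of all loci. No call was made for the 6 choroid plexus markers, for the erythroid markers (3 tested) or for the lymphocyte markers (3 tested in the cortex, none in the thalamus).

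Each gene was therefore also expressed as a percentage of the summed microglial markers of its library, as a description with no test. Relative to that sum C1qa and C1qb were 1.17 and 1.23 times as high in the TBI as in the sham cortex and 0.989 and 1.03 times in the thalamus, and the groups overlapped. C3ar1 was at 0.959 and 1.05, also with overlap. C1qc was at 1.19 in the cortex and 0.703 in the thalamus, with overlap. C3 was at 1.37 and 1.31, with overlap in both regions, and C2 at 1.44 and 1.26.

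C1s and Serping1 were above the sham range in both regions on this scale. The share of all loci that lie above it on this scale was not counted. C1s made up 2.64% to 3.35% of the marker sum in the sham cortex and 4.28% to 7.23% in the TBI cortex, and 1.83% to 2.03% in the sham thalamus and 2.14% to 3.86% in the TBI thalamus. Serping1 made up 3.50% to 5.53% in the sham cortex and 8.46% to 17.2% in the TBI cortex. In the thalamus it made up 1.58% to 2.72% in sham and 6.57% to 9.19% in TBI rats, 4.01 times as much by the means. C2 was above the sham range in the cortex only. The part of cell numbers in these values was not tested.

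**Figure D4:**
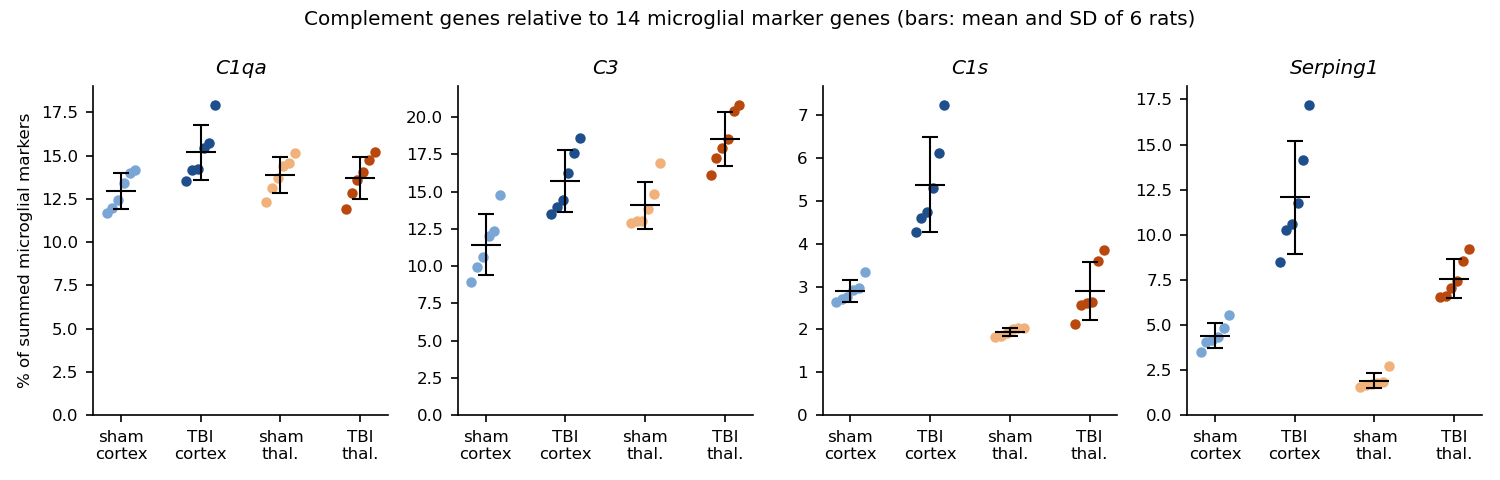
C1qa, C3, C1s and Serping1 as a percentage of the summed normalized counts of 14 microglial marker genes in each library (linear axes from 0), with the mean and SD of 6 rats as bars. The C1qa groups overlap in both regions, while every TBI value of C1s and Serping1 lies above every sham value of its region.

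Deviations from the 4 group means over 24 libraries of 12 rats correlated most between C1qa and C1qb (Pearson 0.87, Spearman 0.85). Next came C1s with C2 (0.81 and 0.80), C1s with Serping1 (0.76 and 0.77) and C2 with Serping1 (0.72 and 0.71). Without the 2 libraries of rat 45 these 3 were lower, at Pearson 0.65, 0.68 and 0.59, and C1qa with C1qb was at 0.87. Some pairs of a C1q chain with C1s or C2 then reached like values. C1qa with C2 was at 0.66 and C1qb with C1s at 0.62 (0.53 and 0.51 with rat 45). Other pairs were lower without rat 45, with C1qc and C1s at 0.08. C1qa, C1qb and C1qc were then at 0.35, 0.51 and 0.19 with Serping1. By Spearman without rat 45, C1s was at 0.69 with C2 and 0.70 with Serping1, and C2 with Serping1 at 0.55. By that measure C1qa with C2 was at 0.53 and C1qb with C1s at 0.61. C1qc correlated with C1qa at 0.65 and with C1s at 0.23, and C2 with C3 at 0.14. The libraries of a rat share the animal, so these are descriptions without a p. By the same measure the named loci most like the mean of the C1q chains were Phgdh (0.90), Eef1d (0.88), Unc93b1, Fermt3 and Cdk2ap2 (each 0.86). Those most like C3 were Tbc1d22a (0.77), Irf5 (0.76), Itgb2 (0.75), the joint locus of Hist2h2aa3 and Hist2h3c2 (0.72) and Coro1b (0.72). Both lists hold the highest correlations among all loci compared. How high the highest would reach by chance was not tested.

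Beyond the 8 genes, 41 other complement genes were listed, also with earlier results of these data known, and 39 were found. In the cortex 28 were tested, of which 11 were called higher and 2 lower, with a median log2 difference of 0.25. Over all cortical loci tested, 14.3% were called higher and 14.9% lower, and the median was -0.01. In the thalamus 29 were tested, of which 12 were called higher and 3 lower, with a median of 0.37. Over all thalamic loci tested, 14.5% were called higher and 20.9% lower, and the median was -0.02. Among the initiation genes C1r, the protease partner of C1s, rose 1.78-fold in the cortex (adjusted p = 8.26e-05) and 2.03-fold in the thalamus (adjusted p = 0.00144). C4b, whose product is cleaved by C1s, rose 1.74-fold (adjusted p = 0.000526) and 1.68-fold (adjusted p = 0.0275). The thalamic C4b call was lost without sham rat 38 or 55 or TBI rat 63, with adjusted p from 0.0504 to 0.0640. Without rat 45, C1r rose 1.66-fold in the cortex and 1.77-fold in the thalamus, and C4b 1.61-fold and 1.46-fold. These calls were still made. The lectin pathway genes Colec11 and Fcn1 rose 2.29-fold and 1.77-fold in the cortex and 2.00-fold and 1.84-fold in the thalamus, while Masp1, Masp2 and Fcnb were not called. Of the alternative pathway, Cfd (factor D) rose 1.92-fold in the cortex (adjusted p = 0.000538) and was not called in the thalamus (1.34-fold, adjusted p = 0.208). Without rat 45, Cfd was at 1.81 in the cortex and 1.16 in the thalamus. Cfp (properdin) was at 1.02 and 0.943.

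Of the 7 terminal pathway genes only C7 and C8g passed the filter on low values, and neither was called in either region. C7 was at 1.70 (CI 1.04 to 2.76, adjusted p = 0.0946) in the cortex and 1.72 (CI 1.01 to 2.95, adjusted p = 0.108) in the thalamus. C8a, Colec10 and Mbl1 had at most 3 fragments in every library.

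Of the soluble regulators Clu, a regulator of the terminal complex, rose 1.53-fold and 1.92-fold. Vtn rose 1.35-fold and 1.59-fold (thalamus adjusted p = 0.0487, lost in 7 of 12 fits that left out 1 library). Without rat 45, Vtn rose 1.26-fold and 1.34-fold and was still called in each region. C4bpa, which binds C4b, was the only one called lower, at 0.510 in the cortex (CI 0.315 to 0.825), with group medians of 16.6 and 7.62 normalized counts. That call was lost in 9 of 12 such fits. The TBI cortex mean of C4bpa, 7.78, was under the filter's mean of 10, and it was tested only because its sham mean was higher (17.5). C4bpb, Srpx2 and Cfi were not called where tested. Of the membrane regulators Cr1l rose 1.13-fold and 1.29-fold, and Cd55 (decay-accelerating factor) rose 1.34-fold in the thalamus and was at 1.02 in the cortex, with a difference between regions that was not called (adjusted p = 0.352). Susd4 fell to 0.915 and 0.791, and Csmd1 was called in the thalamus, at 0.783, while Cd46, Cd59 and Csmd3 were not called. The calls of Cr1l and Susd4 in the cortex and of Csmd1 in the thalamus were lost in 4, 9 and 6 of 12 such fits.

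Among the receptors the integrin chains of the C3 fragment receptors rose. Itgb2, their shared beta chain, rose 1.86-fold in the cortex (adjusted p = 1.3e-05) and 3.18-fold in the thalamus (adjusted p = 2.16e-08), and the difference between regions was called (0.77 ± 0.13, adjusted p = 0.000690). Itgax rose 3.30-fold and 6.81-fold, from sham medians of 5.48 and 5.35 normalized counts. At such low counts the size depends on the pseudocount. With 5 in place of 1 the log2 differences of Itgax were 1.27 and 2.07 instead of 1.72 and 2.77. The sham means of Itgax, 6.09 in the cortex and 4.78 in the thalamus, were under the filter's mean of 10. Itgax was tested only because its TBI means were higher (22.8 and 37.6), and equally low genes without such a rise were not tested. Itgam was at 1.11 in the cortex (adjusted p = 0.393) and rose 1.87-fold in the thalamus (adjusted p = 0.000549), with a difference between regions of 0.75 ± 0.22 (adjusted p = 0.0342) that was lost in 6 of 12 fits that left out 1 rat. C5ar2 rose 1.52-fold and 1.88-fold, while C5ar1 was not called. Cr2, the C3d receptor, fell to 0.405 in the thalamus (CI 0.265 to 0.620, adjusted p = 0.00292), from a sham median of 94.5 to a TBI median of 36.6 normalized counts, and was too low to be tested in the cortex. Genes that share the C1q domain but lie outside complement (C1ql and Cbln genes) were tested for 6 of 8. Cortical calls were 1 higher and 3 lower, beside 14.3% and 14.9% of all loci. Thalamic calls were 0 higher and 1 lower, beside 14.5% and 20.9%.

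**Figure D5:**
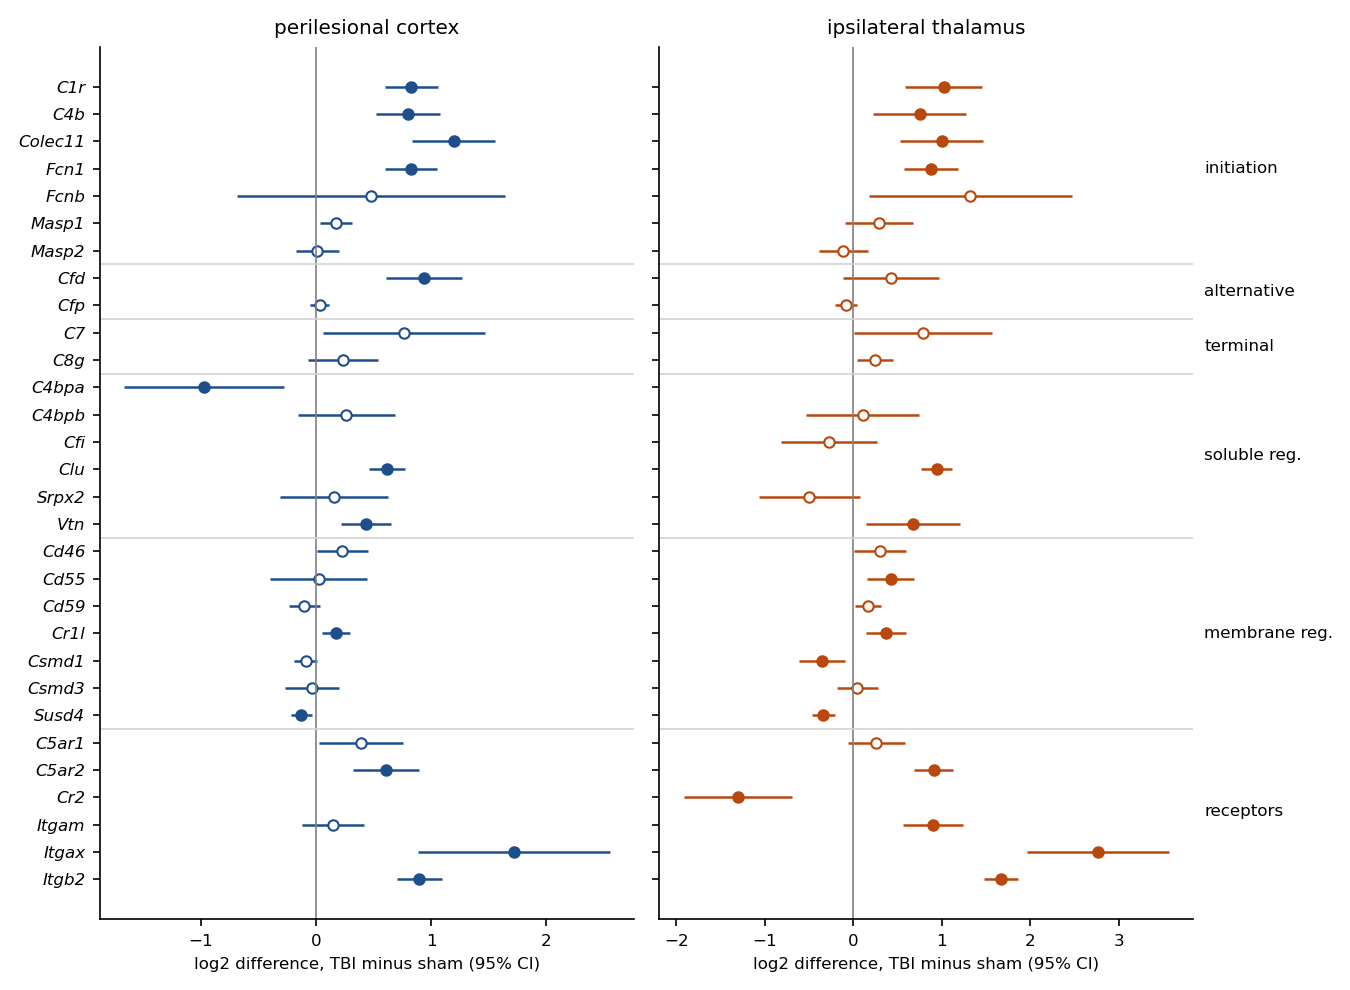
Log2 differences (TBI minus sham) with 95% confidence intervals of the other complement genes tested in each region, grouped by role and filled where the adjusted p was under 0.05. Itgax and Itgb2 have the largest rises in the thalamus (2.77 and 1.67), and Cr2 the largest fall (-1.30). Itgax passed the filter on low values only through its TBI libraries.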

How the data were processed

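Stranded mRNA libraries were prepared (1 library per rat and region, 24 in all), and the authors deposited 1 table of values per locus with a table of gene names and positions. The submitters' processing notes name TopHat2 2.0.11, Bowtie2 2.2.2, Cufflinks 2.2.1, Cuffdiff and Rnor_5.0. The paper names RGSC3.4 with the annotation of Rnor_5.0, so the build of the locus positions is uncertain, and they are given as deposited. The deposited signal is a fragment count divided by a size factor. In every library 100% of the low values were multiples of the value of 1 fragment (tolerance 0.1, up to 500 steps), from which fragments were recovered. Assembly by the authors can move fragments between neighbouring or overlapping loci, which bears on C2, Serping1 and the C1q genes.

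Named loci with a mean of at least 10 were tested in R 4.3.3 with limma 3.58.1 (lmFit, eBayes with trend) on log2(value + 1), adjusted by Benjamini-Hochberg (threshold 0.05), within each region (15493 loci in the cortex, 15564 in the thalamus) and, for regions, over all 24 libraries (15678 loci). Unnamed loci (37.1% of 42334) hold 1.90% to 2.23% of the values and were left out. Steps were checked on simulated data. Both libraries of a rat come from 1 animal. Their deviations from group means correlated with a median of 0.187 (0.00393 to 0.569), with 10 of 12 over 0.1, against -0.0332 for different rats of a group, so the fit with the rat as a block is given where it changes a call. Every member is named, other complement genes where called in a region, and like loci by the 5 highest correlations. 1 further complement gene was left out of the lists and is not reported here. Members and lists were chosen with earlier results of these data known. Alternatives were TMM and upper quartile scaling, filters, pseudocounts of 0.1 and 5, edgeR 4.0.16 quasi-likelihood on recovered fragments, all libraries in 1 fit, the rat block and leaving out each library. Tables were made with Python 3.11.15 and pandas 2.3.3, figures with matplotlib 3.10.9.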

Additional observations from a re-analysis of the deposited data

Results flagged for a closer look

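Dixon's criterion (0.625 for 6 samples) was applied to the 8 genes in each of the 4 groups, 32 in all, and was passed in 3, where chance passes about 1 in 20. These were the highest C1s value of the sham cortex (rat 50, 541 normalized counts), the highest C2 value of the TBI cortex (rat 45, 3617) and the highest C3ar1 value of the sham thalamus (rat 26, 154).

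The TBI effect differed between the regions by the interaction test for Serping1, which was 1.06 (log2) larger in the thalamus, and for the other complement genes Itgb2 (0.77) and Itgam (0.75). By the exact permutation test over rats the log2 ratio of C1qc to C1qa differed between the regions by -0.55, and that of C1qc to C1qb by -0.55. These ratios were picked after the values had been seen, so their tests only describe the pattern that led to them.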

How the results depend on the processing

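All 8 genes were called higher in the cortex, and at least 7 of 8 in the thalamus, under every alternative run, where C1qc was the gene lost. Leaving out 1 library gave 7 to 8 members called higher in the thalamus, and leaving out 1 rat gave 1 to 2 for the difference between regions and 1 to 3 members called lower in the sham thalamus. With the rat as replicate block 2 members instead of 1 had a larger effect in the thalamus (Serping1 and C3ar1), C2 was called lower in the sham thalamus, and no other member call changed. C3ar1 in sham rats turned from 0.01 to -0.0113 under TMM and -0.00520 under upper quartile scaling, and ran from -0.0734 to 0.0406 over the fits that left out 1 rat. Such fits also turned the direction of uncalled differences: in TBI rats, thalamus minus cortex, C1qc ran from -0.0414 to 0.183 and Serping1 from -0.0540 to 0.144, Cd55 in the cortex from -0.160 to 0.0935, the ratio of C1qb to C1qa between regions from -0.0231 to 0.0392, and in the cortex C1qc to C1qa from -0.00308 to 0.0801 and C1qc to C1qb from -0.0689 to 0.0319. The leave-one-out fits of the ratios were added after the data had been seen. Over all loci, leaving out 1 rat gave 274 to 421 larger and 405 to 783 smaller effects in the thalamus, against 427 and 711 with all rats. In the thalamus 41.0% of all calls were higher, but 54.3% with TMM and 52.3% with upper quartile scaling. Among the other complement genes, calls near the threshold were lost for Cr1l, Susd4 and Vtn in the cortex and Cd55 in the thalamus with all 24 libraries in 1 fit, for Susd4 in the cortex with upper quartile scaling, for Csmd1 in the thalamus with both scalings and for Vtn in the thalamus with no filter. Every member is 1 locus, so summing the loci of a name changed nothing and was not run. With 6 rats per group, the calls that depend on single rats include the thalamic rise of C1qc and the difference between regions of the C3ar1 effect, and C3ar1 rests on 75 to 359 fragments per library.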
